A study of Mus musculus with 12 samples.

Results

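The 47 genes described here encode the machinery that copies DNA in S phase and the factors that open this phase, and they were followed by RNA sequencing in Sol8 cells with and without an intact Gne gene. They were listed by gene symbol for their known function, with earlier results of these data known. All 47 were found among the 48586 genes with counts, and all 47 passed the filter of at least 10 counts over all libraries, which left 20415 genes for the tests. Sol8 is a mouse myoblast line derived from soleus muscle, and Gne encodes the key enzyme of sialic acid synthesis. There were 3 libraries each of Gne KO differentiated, WT differentiated, Gne KO proliferative and WT proliferative cells. Gne KO cells carry a deletion in exon 3 of Gne made with CRISPR/Cas9 and are 1 clone, so that the deletion and any other property of this clone cannot be told apart. Differentiated cells were kept in a low share of horse serum and proliferative cells in fetal calf serum, so that the kind of serum differs between the states as well. Libraries within a group are labelled as biological replicates, whereas the study speaks both of independent cultures and of triplicates, and p-values here measure only the spread between libraries, which may be technical.

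Before S phase, the origin recognition complex, Cdc6 and Cdt1 load the ring of Mcm2 to Mcm7 onto DNA, a step known as licensing. Cdc45 and the GINS complex then turn the ring into a working helicase, primase starts the new strands, polymerases extend them on the PCNA clamp, and Fen1 and Lig1 join the fragments of the lagging strand. Many of these genes are switched on at the end of G1 by E2F transcription factors, and myoblasts leave the cell cycle when they differentiate.

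Because E2F factors are known regulators of this gene group, promoters were searched for E2F motifs. Promoter windows of 300 bases, from 250 bases before to 50 bases after the start of a gene, were taken from RefSeq (GRCm38.p6), where 38 of the 47 genes had at least 1 window. An E2F motif, written as TTTCCCGC or TTTGGCGC or TTTCGCGC or TTTGCCGC and searched on both strands, was present in a window of 15 of these 38 genes (39.5%). The same motif was present for 704 of the 27025 genes in the RefSeq table (2.6%) and for 490 of the 10636 genes with a window that averaged 5 or more normalized counts (4.61%). The 15 genes were Mcm3, Mcm5, Mcm6, Mcm7, Orc1, Cdc6, Cdt1, Gins3, Rfc3, Pola1, Pold1, Lig1, E2f2, Uhrf1 and Casp8ap2. The CCAAT box, CCAAT, was present for 25 of the 38 genes (65.8%), against 41.1% of all genes in the table and 43.0% of those that averaged 5 or more counts. The CHR motif, TTTGAA, was present for 6 (15.8%), against 20.2% and 14.4%. A match describes the letters of the window only and is not evidence of binding.

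Windows of 4 genes are shown, since each of these genes had the highest or the lowest log2 fold change of Gne KO over WT proliferative cells within its role and holds an E2F motif. Mcm5 and Lig1 were higher in Gne KO proliferative cells, whereas Pola1 and Casp8ap2 were lower. The windows lie at chr8:75109259-75109558 on the plus strand for Mcm5, chr7:13278576-13278875 on the plus strand for Lig1, chrX:93632106-93632405 on the minus strand for Pola1 and chr4:32615220-32615519 on the plus strand for Casp8ap2. They are written 5′ to 3′ on the strand of the gene, and capitals mark the E2F motif, which in Mcm5 is formed by overlapping matches on opposite strands.
Mcm5: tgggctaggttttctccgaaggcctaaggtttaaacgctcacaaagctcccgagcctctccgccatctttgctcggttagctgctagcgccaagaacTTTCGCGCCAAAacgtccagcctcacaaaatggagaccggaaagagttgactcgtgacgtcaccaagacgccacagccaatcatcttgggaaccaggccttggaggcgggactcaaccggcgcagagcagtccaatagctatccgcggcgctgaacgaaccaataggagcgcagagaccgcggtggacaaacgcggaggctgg
Lig1: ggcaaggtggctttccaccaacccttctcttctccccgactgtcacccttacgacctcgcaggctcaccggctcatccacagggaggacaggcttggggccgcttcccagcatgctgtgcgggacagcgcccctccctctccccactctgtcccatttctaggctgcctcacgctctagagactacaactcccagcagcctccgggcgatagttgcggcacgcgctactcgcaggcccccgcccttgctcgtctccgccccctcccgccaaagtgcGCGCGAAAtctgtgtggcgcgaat
Pola1: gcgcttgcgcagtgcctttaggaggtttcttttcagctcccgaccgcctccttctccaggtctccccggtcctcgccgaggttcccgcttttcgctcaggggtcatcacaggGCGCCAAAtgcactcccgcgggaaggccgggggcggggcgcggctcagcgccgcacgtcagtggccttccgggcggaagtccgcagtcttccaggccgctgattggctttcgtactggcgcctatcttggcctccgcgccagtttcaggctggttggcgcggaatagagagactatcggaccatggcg
Casp8ap2: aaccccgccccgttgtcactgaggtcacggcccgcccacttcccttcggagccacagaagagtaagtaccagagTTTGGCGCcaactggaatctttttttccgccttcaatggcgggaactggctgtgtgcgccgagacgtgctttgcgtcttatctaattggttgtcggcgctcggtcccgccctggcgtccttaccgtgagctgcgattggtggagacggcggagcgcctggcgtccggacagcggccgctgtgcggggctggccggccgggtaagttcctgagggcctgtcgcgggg
Counted from the RefSeq start used for the window, the first base of the motif is at -153 in Mcm5, 27 in Lig1, -138 in Pola1 and -176 in Casp8ap2. This start need not be that of the GENCODE annotation. GENCODE starts Mcm5 at 75109569, beyond the end of the window shown, and Lig1 at 13277283, before the window shown. RefSeq gives 3 windows for Lig1, of which the other 2 hold no E2F motif, and the position is counted from the start that belongs to the window shown. An E2F motif was found both in genes that were higher and in genes that were lower in Gne KO proliferative cells.

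The total count per library was between 22612038 and 29389759, with a median of 26740404. TMM, the trimmed mean of M values, was used to scale counts, and log2 fold changes with standard errors (SE) and adjusted p-values come from limma's voom fit of all 12 libraries, adjusted by the Benjamini-Hochberg method over 20415 genes. A gene passed the test at an adjusted p under 0.05, and "rose" and "fell" are used only of such genes. The effect filter of the study was met if the normalized count also averaged 5 or more and the log2 fold change, in either direction, exceeded 0.9 plus the ratio of 7.5 to the square root of that average. Gne itself had 232, 333 and 344 normalized counts in Gne KO proliferative cells, against 278, 255 and 277 in WT proliferative cells. In differentiated cells it had 205, 209 and 212 in Gne KO, against 277, 285 and 264 in WT, with no overlap (log2 fold change -0.40, adjusted p = 0.0467 by voom). Its level does not check the genotype because reads from the rest of the transcript are counted. Gne KO proliferative replicate 1 and WT proliferative replicate 1 stood apart from the other replicates of their groups. Their SD over genes of the log2 difference from the other replicates was 0.400 and 0.291, and counts are therefore also given without both. Gne KO proliferative replicates 2 and 3 had 0.302 and 0.305, which is above WT proliferative replicate 1.

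The muscle label was checked with marker genes. All 8 markers of differentiated muscle, among them Myog and the sarcomeric genes Ttn and Acta1, were detected in every group, but their summed normalized counts were 796 to 1803 in Gne KO proliferative, against 22640 to 67410 in WT proliferative cells, and 1539 to 2773 in Gne KO differentiated, against 94390 to 106500 in WT differentiated cells. WT proliferative replicate 1 held the highest value of its group. Markers of myoblasts summed to 15920 to 24330 in Gne KO proliferative and 34860 to 47250 in WT proliferative cells, with 5 of 6 tested and Pax7 below the filter. Markers of fibroblasts, of which 4 of 6 were tested, summed to 258900 to 269400 in Gne KO and 178000 to 197100 in WT differentiated cells, but to 132700 to 157300 in Gne KO and 199400 to 242200 in WT proliferative cells. These markers were divided, since Col1a1 was lower in Gne KO, with -1.86 in proliferative and -0.37 in differentiated cells on the log2 scale, whereas Pdgfra was higher, with 1.63 and 0.91. Differentiated names the labelled culture condition throughout. Between differentiated and proliferative Gne KO cells the muscle markers were divided. Myog, a marker of onset, did not pass (-1.11, adjusted p = 0.0966 by voom). Ttn and Acta1 rose, by 2.46 and 1.32 on the log2 scale (adjusted p = 0.000158 and 0.0484 by voom). Mymk, Ckm, Myh3, Tnnt3 and Mylpf had positive log2 fold changes that did not pass. The part that these shifts have in the differences below was not tested. In RNA from whole cultures, more or fewer cells in S phase and more or less RNA per cell cannot be told apart. In separate assays, the study found fewer Gne KO than WT cells positive for Ki67, a marker of proliferation. By DNA content it found fewer past G1 at the later time point, and no significant difference at the earlier one. How these assays bear on the RNA values was not tested.

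**Figure D1:**
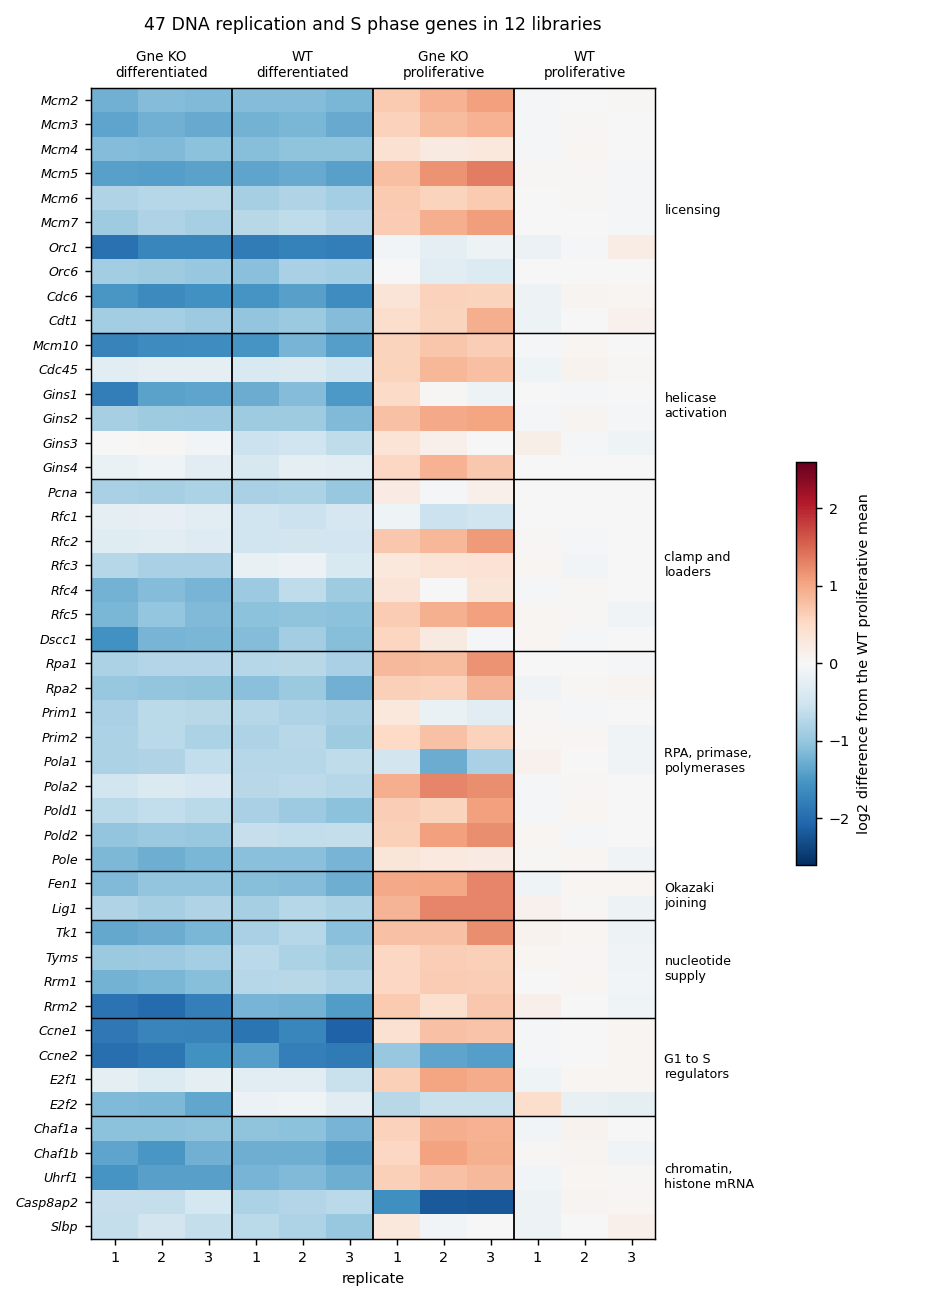
Each row is 1 of the 47 genes, grouped by role, and each column 1 of the 12 libraries; the colour is the log2 difference of the normalized count from the mean of the 3 WT proliferative libraries. Most genes are above this mean in Gne KO proliferative cells and below it in differentiated cells of both genotypes, and Casp8ap2 and Ccne2 are the darkest blue rows in Gne KO proliferative cells.

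The 47 listed genes were mostly higher in Gne KO than in WT proliferative cells. Of the 47 genes, 33 rose, against a background of 28.2% of all genes tested, and 5 fell, against 27.2%, while 9 did not pass the test. The median log2 fold change of the 47 genes was 0.65, against -0.02 for all 20415 genes and 0.17 for the 10684 genes that averaged 100 or more normalized counts, as all 47 did. In single libraries the median log2 difference from the WT proliferative mean was 0.55, 0.63 and 0.69 in Gne KO, against -0.01, 0.03 and -0.01 in WT proliferative cells. The effect filter was met by 4 genes that rose, Mcm5, Pola2, Fen1 and Lig1 (background 2.38%), and by 1 that fell, Casp8ap2 (background 6.88%). The group mean was highest in Gne KO proliferative cells for 39 of the 47 genes and in WT proliferative cells for the other 8. The share of all genes tested with either pattern was not counted.

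Among the licensing genes, 8 of 10 rose in Gne KO proliferative cells. All subunits of the Mcm ring rose, from Mcm4, with a log2 fold change of 0.30 (SE 0.0699), to Mcm5. Mcm5 had 5965, 7787 and 8789 normalized counts in Gne KO, against 3548, 3551 and 3355 in WT proliferative cells. All Gne KO libraries were above all WT libraries, and replicate 1 was the lowest of the Gne KO libraries (log2 fold change 1.09, SE 0.107, adjusted p = 6.86e-07 by voom). The loaders Cdc6 and Cdt1 rose by 0.50 and 0.66 on the log2 scale. The origin recognition subunits Orc1 and Orc6 had log2 fold changes of -0.14 and -0.21 that did not pass the test. Orc6 had 1024, 828 and 790 normalized counts in Gne KO, against 1019, 1016 and 1005 in WT proliferative cells, so the groups overlapped through replicate 1 of Gne KO. Without that library, Orc6 fell by 0.33 on the log2 scale (adjusted p = 0.00164 by voom). Mcm4 did not pass when counts were scaled by library size alone.

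Of the genes that activate the helicase, Mcm10, Cdc45, Gins2 and Gins4 rose by 0.65 to 0.92 on the log2 scale, whereas Gins1 and Gins3, which encode other subunits of the same GINS complex, did not pass. Gins2 had 1181, 1376 and 1417 normalized counts in Gne KO, against 679, 726 and 682 in WT proliferative cells, with no overlap. Exons of Gse1 on the opposite strand cover 67.3% of the exon bases of Gins2, and the sources used here do not give whether reads were assigned by strand. Gins1 had 499, 360 and 323 normalized counts in Gne KO, against 353, 345 and 356 in WT proliferative cells, so that replicate 1 alone of the Gne KO libraries was clearly above WT.

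The sliding clamp Pcna, often used as a mark of S phase, did not pass, with 0.10 on the log2 scale (SE 0.0800, adjusted p = 0.293 by voom). Of the RFC subunits that load it, Rfc2, Rfc3 and Rfc5 rose, Rfc4 did not pass and Rfc1, the large subunit, fell. Rfc2 had 2046, 2272 and 2701 normalized counts in Gne KO, against 1281, 1208 and 1267 in WT proliferative cells. Rfc1 had 2738, 2005 and 2064 in Gne KO, against 2917, 2972 and 2977 in WT proliferative cells. The groups did not overlap for either gene, but Gne KO replicate 1 came close to WT for Rfc1 (log2 fold change -0.39, SE 0.0989). Dscc1, part of an alternative clamp loader, did not pass (0.25, SE 0.136). Rfc4 and Dscc1 changed their calls with 1 library, since Rfc4 passed with 0.29 without Gne KO replicate 2 and Dscc1 with 0.40 without Gne KO replicate 3.

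The single-strand binding genes Rpa1 and Rpa2 rose by 0.94 and 0.70 on the log2 scale. The subunits of the polymerase that starts each strand were divided. Pola2, the accessory subunit, had 2736, 3410 and 3286 normalized counts in Gne KO, against 1401, 1461 and 1405 in WT proliferative cells, which gives 1.14 on the log2 scale (SE 0.0853). Pola1, the catalytic subunit, had 1469, 836 and 1138 in Gne KO, against 2213, 2032 and 1909 in WT proliferative cells, which gives -0.87 on the log2 scale (SE 0.141). No library of either gene crossed into the other group, and for Pola1 the Gne KO libraries lay far apart. Likewise, the primase subunit Prim2 rose by 0.63, whereas Prim1 had -0.05 (SE 0.114). Without Gne KO replicate 1, Prim1 fell by 0.22 (adjusted p = 0.0122 by voom). Without both libraries that stood apart, Prim1, Orc1 and Orc6 passed as lower in Gne KO proliferative cells, so that 8 genes fell (background 28.6%), while the 33 that rose were the same genes (background 29.5%). With all libraries and a trend in GC content and length removed, as described below, Prim1, Orc1 and Orc6 had 0.45, 0.06 and 0.14. The elongating polymerases Pold1, Pold2 and Pole rose by 0.76, 0.96 and 0.27, but Pole did not pass when counts were scaled by library size alone.

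Both genes for joining of Okazaki fragments rose about as much as Pola2. The ligase Lig1 had 5468, 7115 and 7118 normalized counts in Gne KO, against 3185, 2994 and 2677 in WT proliferative cells (log2 fold change 1.14, SE 0.0993). The flap nuclease Fen1 had 3675, 3714 and 4491 in Gne KO, against 1729, 1918 and 1937 in WT proliferative cells (1.09, SE 0.0899). Neither gene showed any overlap between the groups, but exons of Tmem258 and Gm10143 on the opposite strand cover 84.2% of the exon bases of Fen1. All 4 genes of nucleotide supply rose. Tk1, the thymidine kinase of the salvage pathway, had 3253, 3226 and 4409 normalized counts in Gne KO, against 2036, 1964 and 1737 in WT proliferative cells (0.91, SE 0.118). Tyms, Rrm1 and Rrm2 rose by 0.60, 0.61 and 0.59.

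The regulators of entry into S phase did not move as a group. Ccne1 and Ccne2 encode the cyclin E partners of Cdk2, and Ccne1 rose by 0.62 while Ccne2 fell. Ccne2 had 302, 230 and 221 normalized counts in Gne KO, against 574, 597 and 615 in WT proliferative cells (log2 fold change -1.25, SE 0.132, adjusted p = 1.36e-06 by voom). No library of Ccne2 crossed into the other group. The activator E2Fs parted in the same way. E2f1 had 1656, 2213 and 2110 in Gne KO, against 1008, 1129 and 1119 in WT proliferative cells (0.87, SE 0.11). E2f2 had 516, 569 and 565 in Gne KO, against 1156, 739 and 704 in WT proliferative cells (-0.63, SE 0.15). WT replicate 1, the library with the most muscle marker RNA of its group, was the highest for E2f2, the part of this in the difference was not tested, and without it the log2 fold change was -0.40 (adjusted p = 0.00366).

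Among genes of chromatin and histone mRNA, Chaf1a and Chaf1b, which encode subunits of the CAF-1 histone chaperone, and Uhrf1, a factor that maintains DNA methylation, rose by 0.82, 0.84 and 0.74 on the log2 scale. Exons of Ubxn6 on the opposite strand cover 52.5% of the exon bases of Chaf1a. Chaf1b had 1985, 2816 and 2569 normalized counts in Gne KO, against 1388, 1427 and 1267 in WT proliferative cells, with no overlap. Slbp, which binds the stem loop of histone mRNA, did not pass (0.07, SE 0.104). Casp8ap2, also known as FLASH and needed for histone mRNA synthesis, showed the largest difference of the 47 genes. It had 327, 217 and 214 normalized counts in Gne KO, against 902, 1031 and 1020 in WT proliferative cells, which gives -1.97 on the log2 scale (SE 0.133, adjusted p = 2.21e-08 by voom).

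**Figure D2:**
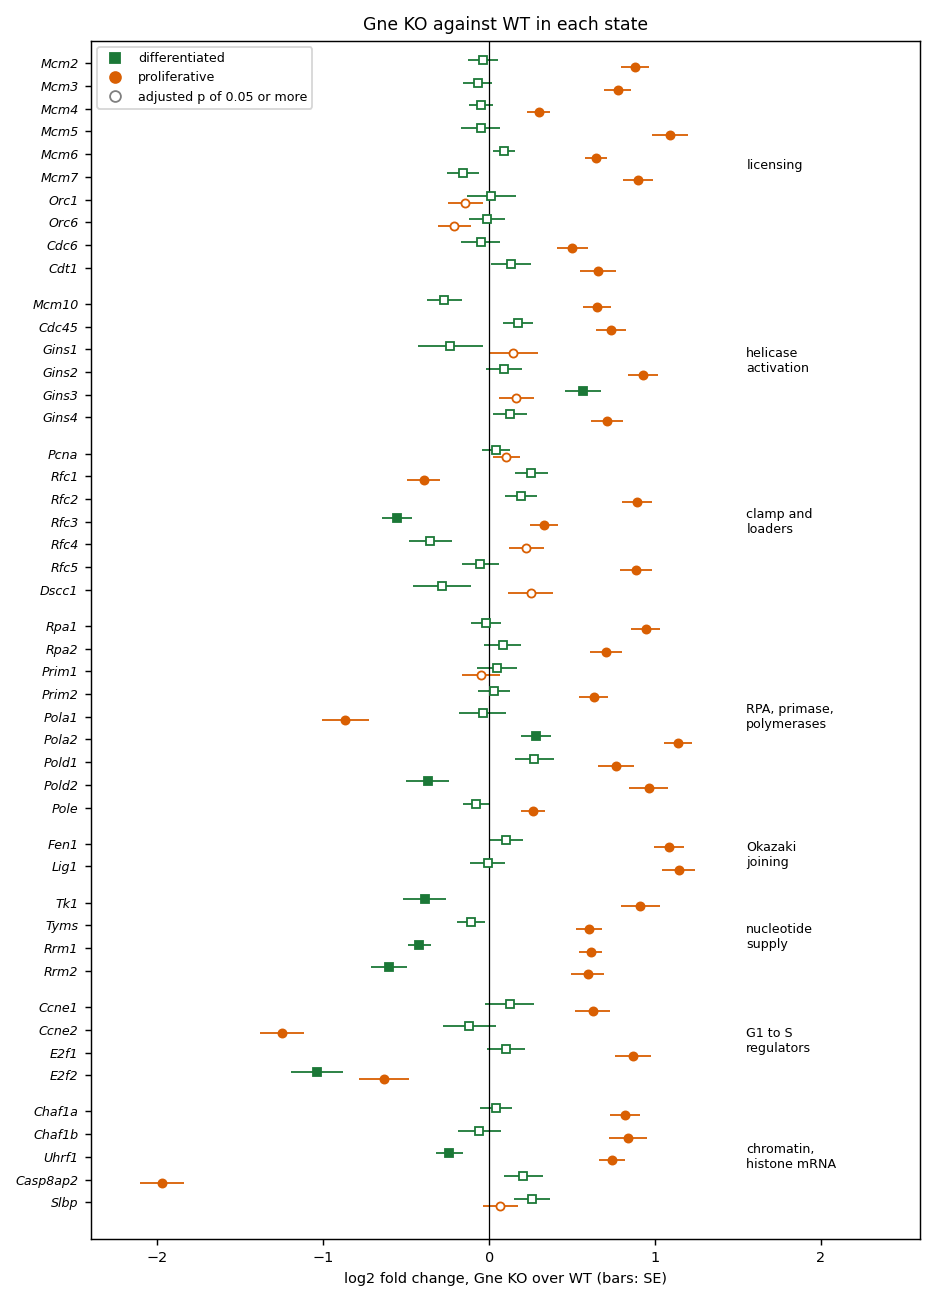
The log2 fold change of Gne KO over WT (horizontal axis, bars are SE) is plotted for each of the 47 genes, with squares for differentiated and circles for proliferative cells; open symbols did not pass an adjusted p of 0.05. Circles lie mostly right of 0, with a median of 0.65, and squares mostly around it, with a median of -0.02.

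The genotype difference in proliferative cells was correlated with the base composition of the transcripts. Over the 47 genes, the Spearman correlation between log2 fold change and GC content was 0.73, and over the 10676 genes that averaged 100 or more normalized counts and had a known GC content it was 0.62, where genes of 1 sample share its library and are not independent. In differentiated cells the values were 0.09 for the 47 genes and 0.14 for all these genes. Of the 5 genes that fell in Gne KO proliferative cells, Ccne2, Casp8ap2 and Pola1 have the lowest GC contents of all members, with 36.3%, 41.0% and 41.5%, while Rfc1 has 46.5% and E2f2 56.6%. The members have a median of 49.4%. Replicates differed in the same property. The deviation of Gne KO proliferative replicates 1, 2 and 3 from the rest of the group had a Spearman correlation with GC content of -0.70, 0.29 and 0.66. These were taken over the genes that averaged 100 or more normalized counts. Members below the median GC content had a median log2 difference from the WT proliferative mean of 0.36, 0.14 and 0.14 in these libraries, and the other members 0.62, 0.90 and 0.99.

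Once a smooth trend in GC content and transcript length over all genes was removed from each library, 39 of the 47 genes rose and 2 fell in Gne KO proliferative cells, against backgrounds of 30.0% and 17.2% on that scale, with a median log2 fold change of 0.53 against 0.12 over all genes. The 2 genes that fell were Casp8ap2, with -0.80 (SE 0.0922), and E2f2, with -0.92 (SE 0.135). Ccne2 turned to 0.54 (SE 0.118, adjusted p = 0.00148 by voom), Prim1 to 0.45 (adjusted p = 0.000111) and Pola1 to 0.16 (adjusted p = 0.244), while Rfc1 had -0.08 (adjusted p = 0.408). Pcna and Rfc4 then rose by 0.46 and 0.84. All 33 genes that rose as first fitted also rose on this scale, whereas Ccne2, Pola1 and Rfc1 no longer passed as lower. Whether base composition acts in the cells or in library preparation was not tested.

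**Figure D3:**
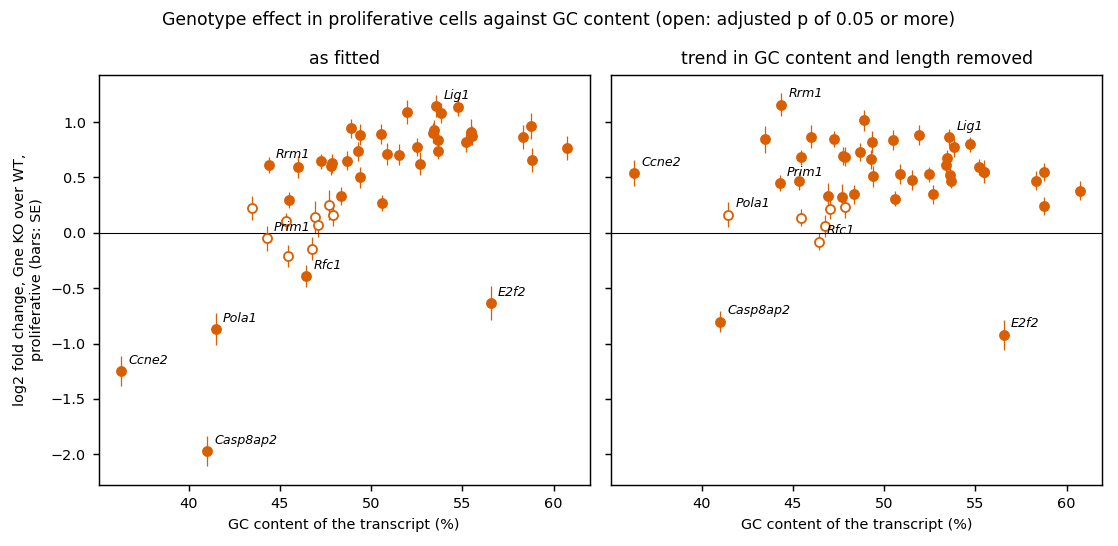
The log2 fold change of Gne KO over WT in proliferative cells (vertical axis, bars are SE) is plotted against the GC content of the transcript for the 47 genes, as fitted on the left and with the trend in GC content and length taken out on the right; open circles did not pass. The correlation of 0.73 on the left is 0.08 on the right, where Ccne2 lies above 0 and Casp8ap2 and E2f2 stay below it.

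In differentiated cells, few of the listed genes differed between the genotypes. Of the 47 genes, 2 were higher in Gne KO, against a background of 11.1% of all genes, and 7 were lower, against 12.5%. The median log2 fold change was -0.02, against -0.01 for all genes and 0.02 for those averaging 100 or more. By voom and by limma-trend, 0 of the 47 met the effect filter, against 0.519% of all genes that were higher and 2.48% that were lower with it, while 9 passed the adjusted p alone. The 2 that were higher were Gins3, with 0.57 (SE 0.111), and Pola2, with 0.28 (SE 0.091). The 10 licensing genes had log2 fold changes between -0.16 and 0.13. With only the 6 differentiated libraries in the fit, where the wider spread of proliferative cells does not enter, 8 were higher and 10 lower, against backgrounds of 22.7% and 22.8% in that fit.

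E2f2 had the largest difference in differentiated cells and was lower in Gne KO in both states. It had 381, 376 and 333 normalized counts in Gne KO, against 755, 783 and 699 in WT differentiated cells (log2 fold change -1.04, SE 0.157, adjusted p = 0.000149 by voom). All Gne KO libraries were far below all WT libraries. E2f1, of the same family, had 921, 851 and 908 in Gne KO, against 886, 887 and 730 in WT differentiated cells, with overlap (0.10, SE 0.115). Casp8ap2 and Ccne2, the genes with the deepest fall in proliferative cells, did not pass in differentiated cells, with 0.21 (SE 0.117) and -0.12 (SE 0.159). However, Casp8ap2 passed as higher in Gne KO differentiated cells with only the 6 libraries, with quality weights, without the trend in GC content and length (0.32, adjusted p = 0.00715 by voom) and without Gne KO proliferative replicate 1 (0.21, adjusted p = 0.0469).

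Nucleotide supply was the role with most genes lower in Gne KO differentiated cells, 3 of 4. Rrm1 and Rrm2 are the subunits of ribonucleotide reductase, which makes deoxyribonucleotides. Rrm2 had 903, 853 and 1007 normalized counts in Gne KO, against 1489, 1458 and 1257 in WT differentiated cells (log2 fold change -0.60, SE 0.107). Rrm1 had 4115, 4201 and 4477 in Gne KO, against 5757, 5849 and 5508 in WT differentiated cells (-0.42, SE 0.0712). Tk1 had 756, 779 and 835 in Gne KO, against 1065, 1149 and 902 in WT differentiated cells (-0.39, SE 0.129, adjusted p = 0.0383 by voom). For each of these genes all Gne KO libraries were below all WT libraries, the reverse of proliferative cells, where they were all above.

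The same crossing was found for 3 further genes, so that 6 genes rose in Gne KO proliferative and fell in Gne KO differentiated cells. Of all genes tested, 28.2% rose in the first comparison and 12.5% fell in the second. The share with both was not counted, so the 6 genes cannot be set against a background. The clamp loader Rfc3 had 530, 495 and 496 normalized counts in Gne KO, against 769, 794 and 676 in WT differentiated cells (-0.55, SE 0.0889), and 1067, 1130 and 1145 in Gne KO, against 921, 839 and 892 in WT proliferative cells. Pold2, a subunit of polymerase delta, had 550, 569 and 564 in Gne KO, against 733, 711 and 728 in WT differentiated cells, and 1703, 2331 and 2577 in Gne KO, against 1148, 1081 and 1110 in WT proliferative cells. Uhrf1 had 1756, 1911 and 1893 in Gne KO, against 2191, 2275 and 2096 in WT differentiated cells, and 7735, 8607 and 9088 in Gne KO, against 4797, 5273 and 5145 in WT proliferative cells. None of the 3 genes overlapped between the genotypes in either state. The 6 genes are those that passed in both comparisons with opposite signs, so that lack of overlap is no further support. The share of all genes without overlap was not counted. In differentiated cells, Pold2 (adjusted p = 0.0493), Uhrf1 (0.0441), Tk1 (0.0383) and Pola2 (0.0351) lay close to the threshold, and each lost its call by voom when 1 of several single libraries was left out, with adjusted p-values of up to 0.132, 0.173, 0.158 and 0.143. Rfc3, Rrm1, Rrm2, E2f2 and Gins3 passed in all 12 such fits. In proliferative cells, Rfc3 did not pass when counts were scaled by library size alone.

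**Figure D4:**
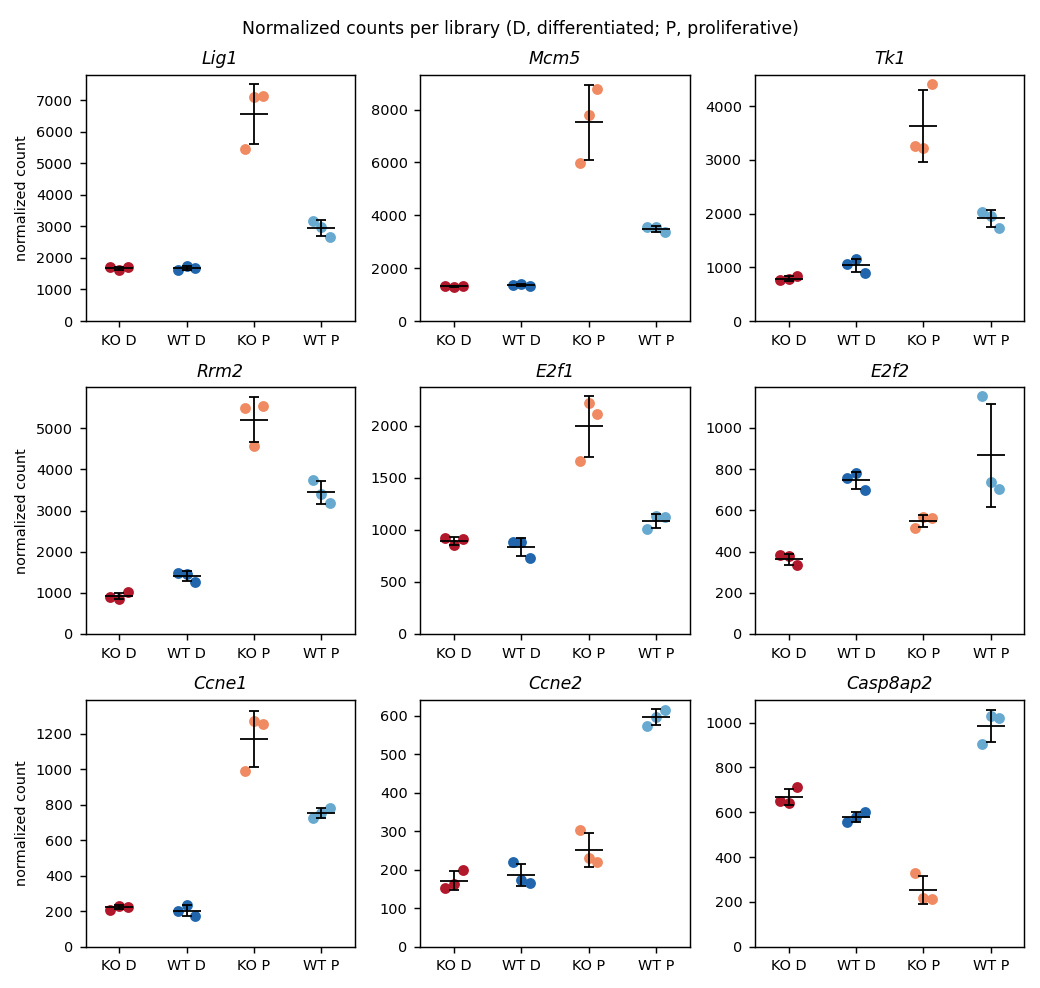
Normalized counts (vertical axis, from 0) of 9 genes are plotted for each library of Gne KO differentiated (KO D), WT differentiated (WT D), Gne KO proliferative (KO P) and WT proliferative cells (WT P); points are libraries, and bars give the mean and SD of 3. Tk1 and Rrm2 are lower in KO D than in WT D and higher in KO P than in WT P, while E2f2 is lower in Gne KO in both states.

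Nearly all of these genes were lower in differentiated than in proliferative cells of both genotypes. In Gne KO cells, 43 of 47 fell in differentiated against proliferative cells, against a background of 27.7%, and 1 rose, against 28.7%. In WT cells, 46 of 47 fell, against 15.3%, and none rose, against 16.6%. By limma-trend, none rose in WT either, and none had a positive log2 fold change at an unadjusted p under 0.05. The median log2 fold change was -1.57 in Gne KO and -0.88 in WT cells, against 0.07 and 0.02 for all genes and -0.15 and -0.05 for those averaging 100 or more. The effect filter was met by 34 genes that fell in Gne KO cells (background 4.84%) and by 15 that fell in WT cells (background 0.852%). Both genotypes showed a fall for 42 genes, and the share of all genes that fell in both was not counted.

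The genes that fell most in Gne KO cells were Mcm5, with -2.50 (SE 0.111), Rrm2, with -2.50 (SE 0.103), and Ccne1, with -2.39 (SE 0.126). Their log2 fold changes in WT cells were -1.36, -1.30 and -1.89. Ccne1 had 209, 230 and 226 normalized counts in Gne KO differentiated cells, against 987, 1270 and 1255 in Gne KO proliferative cells, and 202, 233 and 175 in WT differentiated cells, against 725, 753 and 784 in WT proliferative cells. In WT cells, Ccne1 had the deepest fall, followed by Orc1, with -1.78 (SE 0.128), and Ccne2, with -1.68 (SE 0.138). The single gene that did not pass in WT cells was E2f2, with -0.19 (SE 0.144), and without WT proliferative replicate 1 it had 0.05. Rfc3, Gins4 and E2f1, with the smallest falls that passed in WT cells, lost their calls without 1 of several single libraries, with adjusted p-values of up to 0.173, 0.0674 and 0.0987.

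Casp8ap2 was the single gene that rose in Gne KO cells, and its rise met the effect filter (background 6.84%). It had 650, 643 and 711 normalized counts in Gne KO differentiated cells, against 327, 217 and 214 in Gne KO proliferative cells (log2 fold change 1.42, SE 0.135). In WT cells it fell, with 556, 580 and 602 in differentiated cells, against 902, 1031 and 1020 in proliferative cells (-0.76, SE 0.114). Pola1, Rfc1 and Gins3 did not pass in Gne KO cells, with 0.12, 0.14 and -0.18, and fell by 0.71, 0.51 and 0.58 in WT cells. Without Gne KO proliferative replicate 1, Pola1 and Rfc1 rose in Gne KO cells, by 0.32 and 0.29, and without replicate 3 Gins3 fell by 0.26. Gins3 had 457, 466 and 435 normalized counts in Gne KO, against 310, 318 and 288 in WT differentiated cells, and had the highest log2 fold change of the 47 genes in that comparison. On the scale without the trend in GC content and length, Casp8ap2 rose by 0.34 (SE 0.0938) in Gne KO cells and Pola1 fell by 0.85 (SE 0.113).

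The change with differentiation differed between the genotypes for most members. The interaction term, the log2 fold change of differentiated against proliferative cells in Gne KO minus that in WT, was negative and passed for 34 of 47 genes (background 22.2%) and positive for 5 (background 19.7%). Its median was -0.60, against -0.02 for all genes and -0.16 for those averaging 100 or more. The effect filter was met by 7 genes with a negative term, Mcm5, Mcm7, Pold2, Lig1, Tk1, Rrm1 and Rrm2 (background 3.0%), and by Casp8ap2 with a positive term (background 5.54%). The median log2 fold change of Gne KO over WT was -0.02 in differentiated and 0.65 in proliferative cells. E2f2, which was lower in Gne KO in both states, had an interaction that did not pass, but passed at -0.64 (adjusted p = 0.00162 by voom) without WT proliferative replicate 1. Orc6 and Prim1 likewise passed without Gne KO proliferative replicate 1, with 0.31 and 0.27, and Dscc1 without replicate 3, with -0.68. Without the trend in GC content and length, 27 genes had a negative and 3 a positive term that passed, against backgrounds of 3665 (18%) and 3081 (15.1%) of 20401 genes. With both libraries that stood apart left out, the counts were 35 and 8, against 27.4% and 24.4%.

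**Figure D5:**
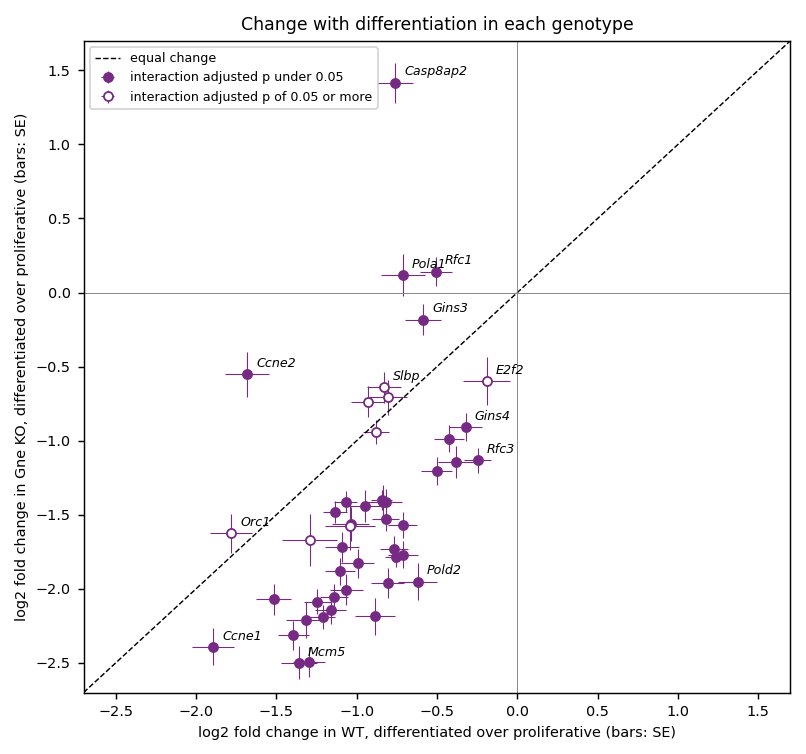
The log2 fold change of differentiated over proliferative cells in Gne KO (vertical axis) is plotted against that in WT (horizontal axis) for the 47 genes, with SE as bars; filled circles passed the interaction test and the dashed line marks equal change. Most circles lie below the line, with medians of -1.57 in Gne KO and -0.88 in WT cells. Casp8ap2 is the single gene that rose in Gne KO cells. Pola1 and Rfc1 also lie above 0 and passed the interaction test, but their change in Gne KO cells did not pass.

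Levels were compared between genes as normalized counts per kilobase of all exons of a gene joined. Mcm6 was the highest of the 47 genes in every group on this scale, with 2326 in Gne KO proliferative and 1487 in WT proliferative cells and with 880 in Gne KO and 828 in WT differentiated cells. The lowest gene was Casp8ap2 in Gne KO proliferative cells, with 37.0, and Dscc1 in WT proliferative cells, with 87.0. In differentiated cells it was Dscc1 in Gne KO, with 35.1, and Orc1 in WT cells, with 37.9. The order depends on the length used, since per kilobase of a single transcript Rrm1 was the highest in Gne KO proliferative, WT proliferative and WT differentiated cells, with 3679, 2407 and 1427, and Pcna in Gne KO differentiated cells, with 1289. Casp8ap2 was then the lowest in proliferative and Orc1 in differentiated cells of both genotypes. Per kilobase of joined exons, the median level of the 47 genes was 443 in Gne KO proliferative and 291 in WT proliferative cells, and 162 in Gne KO and 163 in WT differentiated cells.

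Another 67 genes of the pathway, among them further subunits, checkpoint factors and E2F partners, were counted beside the 47. In proliferative cells 28 of these rose in Gne KO and 22 fell, beside backgrounds of 28.2% and 27.2%. Their median log2 fold change was 0.09, against 0.17 for all genes that averaged 100 or more normalized counts. The shift in median seen for the 47 genes was not found in this wider list. Genes that rose included Pold4, the small subunit of polymerase delta, with 1.34 (SE 0.136), and Dnmt1, the maintenance DNA methyltransferase that works with Uhrf1, with 0.77 (SE 0.0818). Genes that fell included the origin recognition subunits Orc2, with -1.11 (SE 0.155), and Orc4, with -1.78 (SE 0.146), the retinoblastoma gene Rb1, which restrains E2F, with -1.43 (SE 0.168), and Npat, a histone gene activator, with -1.32 (SE 0.103). These 4 genes have GC contents of 36.8% to 44.4%. In differentiated cells 5 were higher and 13 lower in Gne KO (backgrounds 11.1% and 12.5%), and those that were lower included Ccna2, the S phase cyclin A, which averaged 1602 normalized counts in Gne KO, against 2613 in WT differentiated cells. In differentiated against proliferative cells, 47 of the 67 genes fell and 11 rose in Gne KO cells (backgrounds 27.7% and 28.7%), and 49 fell and 3 rose in WT cells (backgrounds 15.3% and 16.6%).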

How the data were processed

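RNA was sequenced from 12 Sol8 libraries, 3 in each of 4 groups taken from the labels. Per the submitters' processing notes, reads were handled with cutadapt 1.18, DESeq2 1.22.1, HTSeq 0.6.1 and TopHat2 2.1.1, with GRCm38 as the build, and the sources used here do not give whether reads were assigned by strand. The authors deposited tables that hold, beside raw read counts per gene for each library, normalized counts and columns of their own comparisons (fold changes and p-values). Only the raw counts were used. Of 54838 genes listed, 6252 hold question marks instead of counts and were left out. All raw count columns were mapped to a sample.

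Counts were scaled by TMM (trimming 30% of log ratios and 5% of mean levels), genes with at least 10 counts in all were kept, and all 4 groups were fitted together by voom in limma 3.58.1 (R 4.3.3), so that the groups share 1 estimate of spread. The fit was tested on data simulated for Gne KO against WT proliferative cells over 20010 genes, where 88% and 100% of genes changed 0.5-fold and 2-fold were recovered, but 36% and 40% of those changed 0.667-fold and 1.5-fold. The simulation changed only 50 genes at each fold and gave every gene the same dispersion. In the data, 28.2% of genes rose and 27.2% fell in this comparison. The simulated shares therefore do not describe how many such changes the reported fit finds. The 47 genes, the 67 further pathway genes and the marker lists were chosen with earlier results of these data known. Values per library are given for the genes with the largest and smallest difference within a role, for those whose genotype differences passed with opposite signs, for those meeting the effect filter in a genotype comparison, and for Tk1, and further genes such as E2f1, E2f2, Ccne1, Gins3 and the genes of the pathway list named with values were added after their values were seen. For the trend with base composition, splines of GC content and of transcript length, with 4 degrees of freedom each, were fitted per library. Alternatives covered scaling, the filter on low counts, limma-trend, sample quality weights, fits of 6 libraries, the replicate block, the trend removal and leaving out each library. Leaving out both libraries that stood apart was added after seeing the data. GC content, lengths and exon overlaps come from the GENCODE annotation of the same build.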

Additional observations from a re-analysis of the deposited data

Results flagged for a closer look

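The genotype difference changed with state, by voom's interaction term at an adjusted p under 0.05, for 39 of the 47 genes. The term was negative for 34, against 22.2% of all genes tested, and positive for 5, against 19.7%. Values are the log2 fold change with differentiation in Gne KO cells minus that in WT cells, so that a negative value means a deeper fall in Gne KO. Among licensing genes the values were -0.92 for Mcm2, -0.84 for Mcm3, -0.35 for Mcm4, -1.14 for Mcm5, -0.56 for Mcm6, -1.05 for Mcm7, -0.55 for Cdc6 and -0.52 for Cdt1. Helicase activators had -0.92 for Mcm10, -0.56 for Cdc45, -0.83 for Gins2 and -0.59 for Gins4, while Gins3, at 0.40, was the single subunit of its complex with a positive value that passed. The clamp loader subunits were likewise divided, with -0.70 for Rfc2, -0.89 for Rfc3, -0.58 for Rfc4 and -0.94 for Rfc5, against 0.65 for Rfc1. Single-strand binding, primase and polymerase genes had -0.96 for Rpa1, -0.62 for Rpa2, -0.60 for Prim2, -0.86 for Pola2, -0.49 for Pold1, -1.33 for Pold2 and -0.35 for Pole, and Pola1 had 0.83. Okazaki fragment joining had -0.98 for Fen1 and -1.15 for Lig1, and nucleotide supply -1.30 for Tk1, -0.71 for Tyms, -1.03 for Rrm1 and -1.20 for Rrm2. The regulators of S phase entry had -0.50 for Ccne1 and -0.76 for E2f1, against 1.13 for Ccne2. Chromatin genes had -0.77 for Chaf1a, -0.90 for Chaf1b and -0.98 for Uhrf1, against 2.18 for Casp8ap2, the largest value in size of the 47 genes in this fit. Without the trend in GC content and length, Casp8ap2 had 1.12 and was exceeded in size by Rrm1, with -1.49, and Rrm2, with -1.35.

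The terms of Ccne1, Gins3, Cdt1, Mcm4, Pold1 and Pole lost their calls in at least 1 fit that left out a single library. The positive terms of Pola1 and Ccne2 turned to -0.11 and -0.45 without the trend in GC content and length, where neither passed. On that scale the terms of Cdt1 (-0.04), Cdc45 (-0.33), Gins4 (-0.25), Rpa2 (-0.25), Pold1 (-0.07), Pole (-0.23), Ccne1 (-0.08) and E2f1 (-0.29) did not pass either. Scaling by library size alone ended the calls of Mcm4, Cdc6, Cdt1, Rfc4, Pold1, Pole and Ccne1.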

How the results depend on the processing

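In proliferative cells, 33 genes rose in Gne KO in the fit as reported, 33 to 34 when a single library was left out and 30 when counts were scaled by library size alone or only the 6 libraries compared were fitted, which lost Mcm4, Rfc3 and Pole. The number that fell was 5, with 5 to 7 when a single library was left out, 8 without both libraries that stood apart, and 2 without the trend in GC content and length, with or without the replicate block. Calls in differentiated cells depended most on the setting. There, 2 genes were higher as reported, 1 with no filter beyond 1 count, 8 with sample quality weights or only the 6 libraries, 10 without the trend, 9 without the trend and with the replicate block, 7 without both libraries, and 1 to 5 when a single library was left out. The number lower was 7 as reported, 4 with no filter beyond 1 count, 12 with quality weights and 4 to 9 when a single library was left out. The share of all genes called moved as well. With only the 6 libraries it was 22.7% higher and 22.8% lower, against 11.1% and 12.5% as reported. For the other settings in differentiated cells, and for those with differentiation below, this share is not given. Those counts therefore cannot be set against a background. With differentiation in Gne KO cells, 1 gene rose as reported, 2 when scaled by library size alone or with quality weights, 3 without both libraries, and 1 to 3 when a single library was left out. Interaction terms that were positive and passed numbered 5 as reported, 3 without the trend, 3 without the trend and with the replicate block, 8 without both libraries and 4 to 7 when a single library was left out.

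Among values that passed in the fit as reported or in the alternative, the sign turned only without the trend in GC content and length, and of these only Ccne2 in proliferative cells passed on both sides. Prim1, which had not passed as reported, then had 0.45 in proliferative cells, also with the replicate block, and an interaction of -0.29. Pola1 had 0.16 in proliferative cells (0.17 with the block), -0.85 with differentiation in Gne KO cells in both fits and an interaction of -0.11 in both. Ccne2 had 0.54 in proliferative cells (0.53 with the block) and an interaction of -0.45 (-0.46 with the block). The cause was not tested. Scaling by library size alone moved the median of all genes to -0.21 for Gne KO against WT in proliferative cells, 0.34 with differentiation in Gne KO cells and 0.20 for the interaction, and the medians of the 47 genes were then 0.46, -1.30 and -0.38. Same-numbered libraries showed no sign of pairing, since their deviations from the group means had correlations of -0.373 to 0.110. With 3 libraries per group, these values cannot show that the cultures were not paired. With the replicate block, 33 genes rose and 5 fell in proliferative cells, and Tk1 in differentiated cells and Rfc3 with differentiation in WT cells lost their calls. With 2 of the 4 E2F motif forms, 12 promoters held a match, against 15. Groups of 3 libraries limit the precision of every value.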
